A study of Mus musculus with 12 samples.

Results

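The proteasome subunits are the 39 genes, of 56923 in the deposited count table, whose mouse symbol is Psma, Psmb, Psmc or Psmd followed by digits, without pseudogenes. Bulk RNA-seq of whole liver gave 12 libraries, 1 per wild-type C57BL/6J mouse, all mice being 6 weeks old when the model was started. Every mouse, controls included, was injected intraperitoneally with 200 µL of 7.5% carbon tetrachloride (CCl4, a liver toxicant used to produce fibrosis) in olive oil, 2 times a week for 6 weeks. The control group of 3 mice had CCl4 alone, and 3 further groups of 3 were also gavaged daily for 2 weeks with the plant polyphenol curcumin, at a low dose of 25 mg/kg, a medium dose of 50 mg/kg or a high dose of 100 mg/kg. No group without CCl4 is part of the series, so each comparison is one between injured livers. Mice were kept 3 to a cage, and the cage of each mouse, or whether controls were gavaged with a vehicle, was not given in the sources used here, so curcumin and the gavage itself cannot be told apart.

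The proteasome is the protease that degrades ubiquitin-tagged proteins. Its barrel-shaped 20S core is made of alpha subunits (Psma), which gate the entrance, and beta subunits (Psmb), of which Psmb5, Psmb6 and Psmb7 carry the constitutive active sites. The 19S regulatory particle recognises and unfolds substrates, with a base of ATPases (Psmc) and scaffold subunits and a lid that removes ubiquitin (both Psmd). Under interferon gamma, and in leukocytes without it, Psmb8, Psmb9 and Psmb10 take the places of Psmb5, Psmb6 and Psmb7 in newly built cores. The resulting immunoproteasome favours cleavages that yield peptides for MHC class I. When proteasome activity is limiting, the transcription factor Nrf1 (encoded by Nfe2l1) raises the genes of the constitutive particle.

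Promoters of 4 catalytic subunits are shown because the constitutive and the immunoproteasome genes took different values in these livers. The 250 bases upstream of the transcription start are RefSeq's, on build GRCm38.p6, written 5′ to 3′ in the direction of the gene. Capitals mark the match to a motif: TGACNNNGC, the letters common to NFE2-type elements that Nrf1 binds, in Psmb5 and Psmb6; TTCNNNGAA, a GAS-type element, in Psmb8; and the CCAAT box, here on the opposite strand, in Psmb9.
Psmb5: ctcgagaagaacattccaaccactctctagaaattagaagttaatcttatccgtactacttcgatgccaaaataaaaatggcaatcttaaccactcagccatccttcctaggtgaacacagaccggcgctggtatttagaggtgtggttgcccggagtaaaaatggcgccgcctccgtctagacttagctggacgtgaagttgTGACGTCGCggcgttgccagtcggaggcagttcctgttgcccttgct
Psmb6: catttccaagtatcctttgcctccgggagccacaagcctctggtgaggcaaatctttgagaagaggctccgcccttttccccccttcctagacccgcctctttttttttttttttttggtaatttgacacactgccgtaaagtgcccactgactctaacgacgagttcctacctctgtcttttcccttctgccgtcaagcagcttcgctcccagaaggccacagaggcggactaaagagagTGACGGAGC
Psmb8: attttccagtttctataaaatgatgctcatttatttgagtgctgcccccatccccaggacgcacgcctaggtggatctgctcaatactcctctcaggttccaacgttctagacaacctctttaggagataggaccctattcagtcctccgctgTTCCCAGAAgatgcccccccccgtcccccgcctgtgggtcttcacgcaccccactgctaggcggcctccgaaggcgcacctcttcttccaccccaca
Psmb9: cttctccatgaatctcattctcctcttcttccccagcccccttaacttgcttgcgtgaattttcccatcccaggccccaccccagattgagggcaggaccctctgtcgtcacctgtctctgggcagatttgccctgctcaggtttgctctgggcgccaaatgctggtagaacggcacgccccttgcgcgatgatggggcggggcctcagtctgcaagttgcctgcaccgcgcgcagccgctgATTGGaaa

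These windows lie at chr14:54617996-54618245 (minus strand, Psmb5), chr11:70525107-70525356 (plus strand, Psmb6), chr17:34197945-34198194 (plus strand, Psmb8) and chr17:34187331-34187580 (minus strand, Psmb9). The match began 47 bases before the start of Psmb5, 9 before that of Psmb6, 97 before that of Psmb8 and 8 before that of Psmb9. RefSeq's table held 32 of the 39 members. On both strands, TGACNNNGC was found in 5 of these 32 (15.6%; Psmb5, Psmb6, Psmc6, Psmd12 and Psmd9) and in 10.2% of the table's 32851 promoters. TTCNNNGAA was found in 1 of 32 (3.13%, Psmb8) against 7.02%, and CCAAT in 13 of 32 (40.6%) against 33.9%. A match is a string of letters, not a measured binding site.

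Library totals ran from 36015134 to 70376474 counts. The share of counts on the 37 mitochondrially encoded genes ran from 30.3% to 64.7%, and near-identical nuclear copies of those genes took a further 10.9% to 23.3%. In 4 libraries the share was under 50%: low replicate 3 (43.0%), medium replicate 1 (48.3%), high replicate 1 (30.2%) and high replicate 3 (42.1%). The other 8, among them every control, had shares of 55.5% to 64.7%. Because these libraries stand apart and lie only in curcumin groups, the main results on dose are given with and without them. Leaving them out leaves 3 control, 2 low, 2 medium and 1 high library, so a high-dose value without them is that of 1 liver, high replicate 2, assumed to vary like the other groups. What the share reflects (RNA quality, library preparation or tissue) was not given in the sources used here and was not tested. The markers of hepatocytes, the main liver cell, were present in every library, and 7 of their 10 genes fell with the mitochondrial share (15.7% of all genes). Values below are CPM (counts brought to a common library size) scaled by the TMM method, which sets libraries on a common level for the bulk of genes.

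In the liver the constitutive and the immunoproteasome catalytic subunits were both expressed, at levels that differed in either direction between the exchangeable pairs. Per kilobase of principal transcript, the median over 12 libraries was 23.8 CPM for Psmb6, 16.6 for Psmb10, 6.58 for Psmb8, 6.06 for Psmb5, 5.76 for Psmb9 and 3.19 for Psmb7. Over all members the highest such medians were those of Psmb3 (37.5), a structural beta subunit, and Psma4 (28.2), an alpha subunit, and the lowest of the members tested outside the testis form were those of the assembly chaperones Psmd10 (0.696) and Psmd5 (1.11). Psmb11, the thymus-specific catalytic subunit, had no count in any library. Psma8, the testis form of an alpha subunit, had 87 counts in all and was at 0 in 6 libraries, so no fold is given for it. Thus 38 members were among the 16839 genes tested, and 37 had a level that supports a fold.

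Psmb5, the chymotrypsin-like constitutive site, was at 8.48, 5.03 and 2.88 CPM in control replicates 1 to 3. It was at 4.29, 4.89 and 29.9 CPM in the low group, at 19.99, 5.86 and 4.53 CPM in the medium group and at 39.3, 3.90 and 18.7 CPM in the high group. The 4 libraries with a mitochondrial share under 50% were the 4 highest, and the other 5 curcumin libraries lay inside the control range. Psmb6, the caspase-like site, was at 27.9, 13.8 and 14.6 CPM in control, 13.6, 10.6 and 63.3 CPM in low, 50.3, 19.98 and 18.0 CPM in medium and 79.4, 13.6 and 51.5 CPM in high. Psmb7, the trypsin-like site, was at 2.57, 3.22 and 3.14 CPM in control, 4.56, 4.19 and 6.92 CPM in low, 7.08, 3.04 and 2.35 CPM in medium and 20.9, 2.701 and 6.20 CPM in high. For both genes the same 4 libraries were the 4 highest, and every low-dose library exceeded every control for Psmb7.

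The immunoproteasome subunits spanned a narrower range. Psmb8, which replaces Psmb5, was at 13.3, 11.5 and 9.05 CPM in control, 5.89, 9.33 and 16.1 CPM in low, 19.5, 9.91 and 8.61 CPM in medium and 16.8, 7.45 and 21.3 CPM in high. Its 4 highest libraries were again those with the low mitochondrial share. Psmb9, which replaces Psmb6, was at 7.75, 10.6 and 8.65 CPM in control, 5.03, 7.01 and 6.78 CPM in low, 7.84, 8.87 and 6.88 CPM in medium and 9.83, 6.37 and 10.6 CPM in high. Psmb10, which replaces Psmb7, was at 21.7, 19.4 and 16.0 CPM in control, 19.4, 19.6 and 21.8 CPM in low, 25.9, 23.4 and 21.3 CPM in medium and 29.7, 21.7 and 25.2 CPM in high. All 3 low-dose values of Psmb9 were below all controls, and all 3 high-dose values of Psmb10 were above all controls, the nearest pair of the latter being 21.73 against 21.69 CPM. From the lowest to the highest library, Psmb5 spanned 13.7-fold, Psmb7 8.91-fold and Psmb6 7.48-fold, against 3.61-fold for Psmb8, 2.11-fold for Psmb9 and 1.86-fold for Psmb10. The median span was 2.36-fold over the 37 members and 3.06-fold over the 14249 tested genes with no 0.

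**Figure D1:**
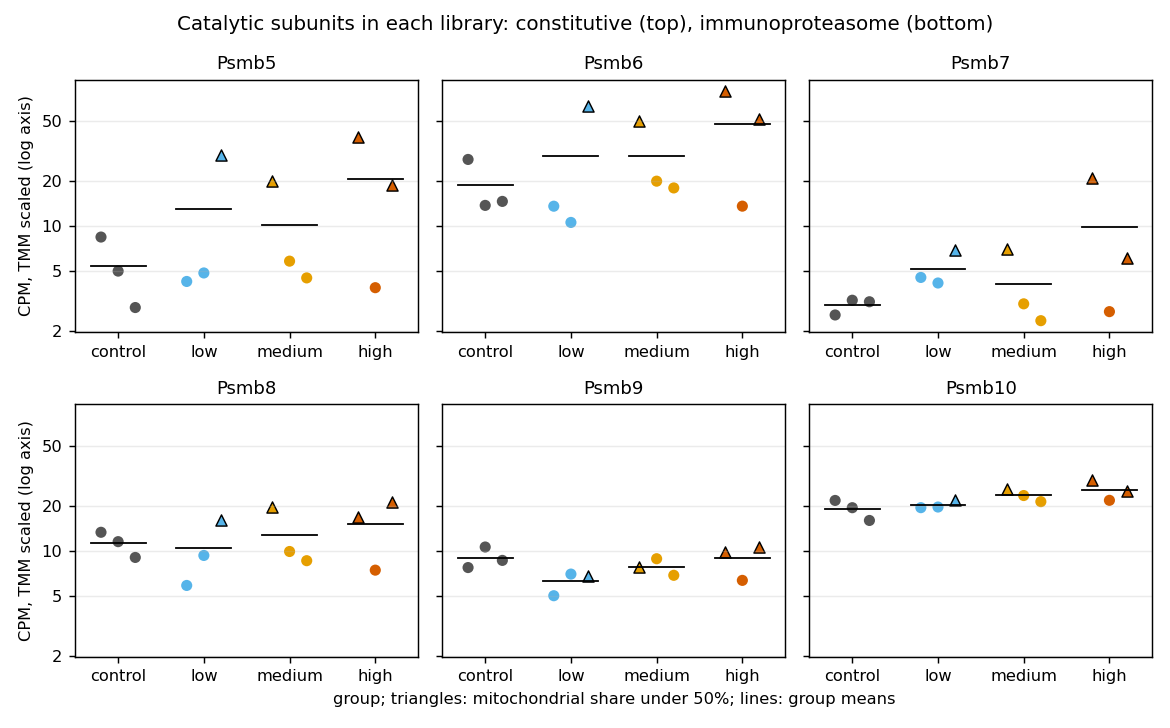
Level of each catalytic subunit (CPM, log axis) in every library by group; points are single livers, lines are group means, and triangles are the 4 libraries with a mitochondrial share under 50%. For Psmb5, Psmb6, Psmb7 and Psmb8 the triangles are the 4 highest points, with Psmb5 from 18.7 to 39.3 CPM in them and at most 8.48 CPM elsewhere.

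Most proteasome subunits had higher mean levels with curcumin than in control, but no difference at any dose passed the test against the spread between livers in edgeR. At the high dose 37 of 38 members had a positive log2 fold change, with a median of 0.58 against 0.03 for all genes. The medians were 0.37 at the low dose (33 of 38 positive) and 0.16 at the medium dose (30 of 38 positive), against 0.01 and 0.02 for all genes. Averaged over the doses the median was 0.35 against 0.01. In edgeR's quasi-likelihood test with Benjamini-Hochberg adjustment, none of the 16839 genes and no member was called at any dose or for their mean (0.0% of genes in each of the 4 comparisons). DESeq2 called 42 genes at the low, 89 at the medium and 172 at the high dose and 165 for their mean, with no member among them. The limma voom test called 0, 35, 256 and 97 genes in the same order, with 1 member, Psmd9, an assembly chaperone of the base, at the high dose (adjusted p = 0.0427).

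At an unadjusted p under 0.05 in edgeR, 14 of 38 members were higher at the high dose and none lower, where 7.87% of all genes were higher and 4.91% lower. At the low dose 1 member was higher and none lower (2.49% and 3.5% of genes), and at the medium dose none was either (2.59% of genes higher and 2.99% lower). For the mean of the doses 3 members were higher and none lower (4.13% and 5.24% of genes). These 3 were Psmc5, an ATPase of the base, Psmd9 and Psmc1, another base ATPase. All comparisons with control share the same 3 control libraries. The count of 14 members depended on single libraries, and the count over all genes moved too. Leaving out high replicate 1 made the members' count 3 (538 of 17273 genes higher), and leaving out high replicate 2 made it 21 (2665 of 17543). It was 6 without control replicate 2 (847 of 17468) and 5 without control replicate 3 (650 of 17518). It was 12 without high replicate 3 (1060 of 17207) and 11 without control replicate 1 (1027 of 17544). It was also 3 without the 4 libraries of low mitochondrial share, where the high group is 1 liver. Without those 4 libraries the median of the members was 0.11 at the high dose (1 liver), 0.14 at the low dose, 0.01 at the medium dose and 0.08 for the mean. At the medium dose the median was -0.01 without medium replicate 1 (19 of 38 positive), and -0.04 with the mitochondrial share as a covariate (13 of 38 positive).

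Psmb5 differed from control by a log2 fold change of 1.92 ± 0.91 (SE) at the high dose, which did not pass (edgeR adjusted p = 0.40). Psmb7 differed by 1.74 ± 0.62 and Psmb6 by 1.36 ± 0.74 (edgeR adjusted p = 0.376 and 0.436). The immunoproteasome subunits differed less in size at that dose, with 0.43 ± 0.45 for Psmb8, 0.43 ± 0.22 for Psmb10 and -0.01 ± 0.24 for Psmb9. Without the 4 libraries, with only high replicate 2 left in the group, the signs for Psmb5, Psmb6, Psmb7 and Psmb8 at the high dose turned, to -0.49, -0.47, -0.14 and -0.60. With the mitochondrial share as a covariate Psmb5, Psmb6 and Psmb8 also turned, to -0.34, -0.36 and -0.41. Without low replicate 3 the low-dose value of Psmb5 went from 1.26 to -0.25, and without medium replicate 1 its medium-dose value went from 0.89 to -0.07.

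Among the other core subunits, the structural beta subunits Psmb1 to Psmb4 had values of 1.02 to 1.65 at the high dose, all 4 positive, with Psmb2 the highest at 1.65 ± 0.53 (edgeR adjusted p = 0.371). In high replicate 2 alone, without the 4 libraries, Psmb2 and Psmb1 stood at 0.04, Psmb4 at -0.09 and Psmb3 at -0.56. The 7 alpha subunits ranged from 0.08 (Psma4) to 1.35 (Psma2), all positive. Of these, 6 of the 7 were positive without the 4 libraries, with a median of 0.10 against 0.84. In the regulatory particle all 17 subunits of base and lid were positive at the high dose, with a median of 0.49 against 1.07 for the 14 subunits of the standard core. Without the 4 libraries the median was 0.45 for the 6 ATPases, 0.32 for the 3 other base subunits and 0.13 for the 8 lid subunits. The smallest unadjusted p-values at that dose were those of Psmd9 (0.91 ± 0.26), Psmc1 (0.73 ± 0.21), Psmc5 (0.85 ± 0.27) and Psmb2 (edgeR adjusted p = 0.365 to 0.371). Psmc5 was at 12.7, 11.7 and 12.2 CPM in control and at 14.9, 15.4 and 25.4 CPM in low, 18.0, 13.3 and 15.8 CPM in medium and 27.6, 17.5 and 20.8 CPM in high, so that no curcumin library overlapped the controls. Its differences were 0.61 ± 0.27, 0.37 ± 0.27 and 0.85 ± 0.27 from the low to the high dose, none of which passed, and without the 4 libraries they were 0.29, 0.27 and 0.52.

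Psma3, an alpha subunit, was the other member above all controls in all 9 curcumin libraries, at 25.7 to 31.5 CPM in control and 31.6 to 45.1 CPM with curcumin. These 2 of 38 members (1.06% of all genes) are few, and the values of Psma3 nearly touched. Psma3 differed by 0.31, 0.22 and 0.30 from the low to the high dose without the 4 libraries. At single doses, 10 members lay wholly above control at the low dose (7.41% of genes), 2 at the medium dose (7.61%) and 9 at the high dose (6.47%), and Psmb9 alone lay wholly below, at the low dose (6.36% of genes). At the low dose the other members named by their p were Psmc3, Psmc1 and Psmd13, at 0.48 ± 0.27, 0.37 ± 0.21 and 0.40 ± 0.24, and, in the other direction, Psmb9 at -0.52 ± 0.24, Psma1 at -0.10 ± 0.26 and Psmd14 at -0.03 ± 0.21. At the medium dose Psmd9 and Psmd7, a lid subunit, were at 0.44 ± 0.26 and 0.35 ± 0.26, and Psma1, Psmd5 and Psmd11 at -0.23 ± 0.26, -0.06 ± 0.19 and -0.05 ± 0.24.

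**Figure D2:**
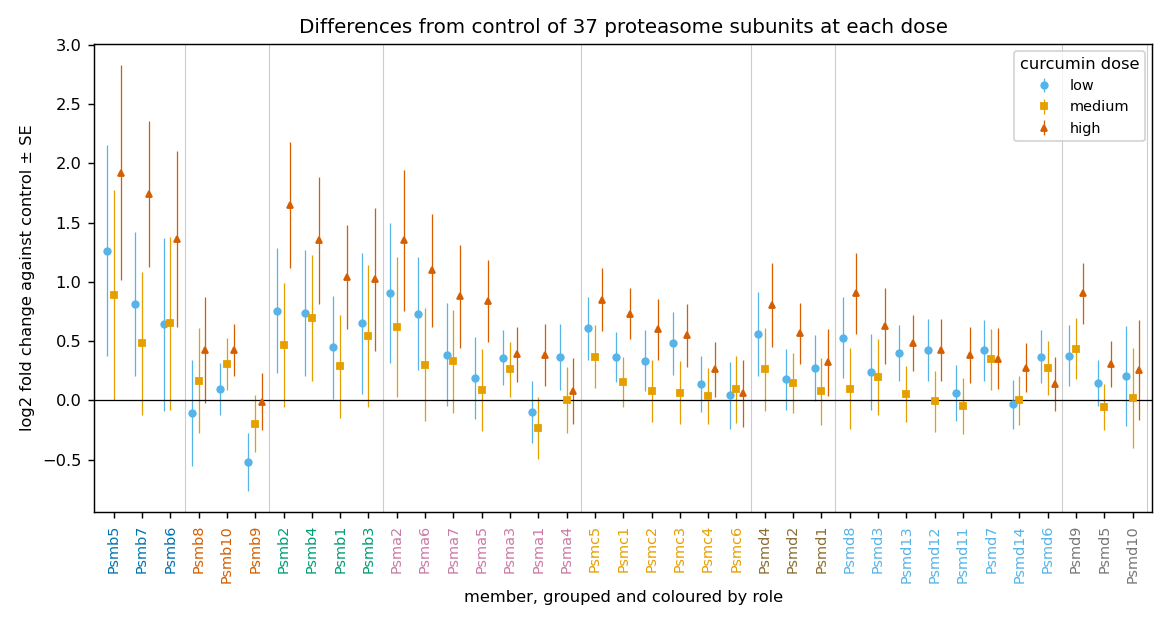
Log2 fold change against control (vertical axis, ± SE) of 37 members at each dose, by role along the horizontal axis; marker shape and colour give the dose. Core subunits reach the highest values at the high dose, with Psmb5 at 1.92 and Psmb2 at 1.65, while Psmb9 lies at -0.52, -0.20 and -0.01 from low to high, and no value passed the adjusted test.

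The size of these medians depended on the scale, while the members' median stayed positive at each dose under the 3 scales tried. At the high dose the median log2 fold change of all genes was 0.03 on the TMM scale, 0.71 with library totals, which count the mitochondrial transcripts, and -0.24 with totals free of mitochondrial genes and copies. Relative to all genes the members' median was higher under each scale, given here for TMM, library totals and totals free of mitochondrial genes. The distance was 0.35, 0.41 and 0.34 at the low dose and 0.14, 0.16 and 0.12 at the medium dose. At the high dose it was 0.55, 0.63 and 0.46.

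Within groups, proteasome subunits of the constitutive core fell against the bulk of genes as the mitochondrial share rose. In a model with the group and the share as terms, 19 of 38 members were called at an adjusted p under 0.05 by edgeR, all of them falling. Among all genes 28.2% were called, with 15.7% falling and 12.5% rising. The median slope of the members was -0.21 on the log2 scale per 10 percentage points of share, against -0.02 for all genes, and 35 of 38 slopes were negative. By scale the members' median was -0.72 with library totals (all genes -0.53) and -0.01 with totals free of mitochondrial genes (all genes 0.17), where 19 slopes were positive and 19 negative. The distance from all genes was -0.18 under each of the 3 scales. With library totals 37 members were called, where 10470 of 16839 genes were, 10411 of them falling. With totals free of mitochondrial genes 13 members were called, where 6110 genes were, 1323 of them falling. A replicate block on the TMM scale gave 15 members and 3017 genes, 1771 of them falling.

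By role, all 3 constitutive catalytic subunits were called. Psmb5 fell by 1.17 ± 0.11 (edgeR adjusted p = 5.09e-05), Psmb6 by 0.93 ± 0.11 (6.84e-05) and Psmb7 by 0.72 ± 0.13 (0.000996) per 10 points. All 4 structural beta subunits were called too, with Psmb3 at -0.74 ± 0.10 and Psmb2 at -0.67 ± 0.08. Of the alpha subunits 4 of 7 were called (Psma2, Psma5, Psma6 and Psma7), while Psma4 stood at 0.14 ± 0.08 and was not. Of the immunoproteasome subunits Psmb8 was called at -0.49 ± 0.11 (edgeR adjusted p = 0.00351), and Psmb9 and Psmb10 were not, at -0.15 ± 0.08 and -0.13 ± 0.06. With totals free of mitochondrial genes the latter pair stood at 0.04 and 0.07.

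The regulatory particle was flatter than the core, with a median slope of -0.18 over its 17 subunits against -0.62 over the 14 of the standard core. In it 2 of 6 ATPases (Psmc2 and Psmc5), 1 of 3 other base subunits (Psmd4, a ubiquitin receptor) and 4 of 8 lid subunits (Psmd3, Psmd7, Psmd8 and Psmd11) were called, and Psmc4, an ATPase, stood at 0.11 ± 0.07. None of the 3 chaperones Psmd5, Psmd9 and Psmd10 was called. As a sum per kilobase, the 14 core subunits stood to the 17 regulatory ones at 2.39 to 2.60 in the 4 libraries of low share and at 1.22 to 1.79 in the other 8, with no overlap. The 37 members with a fold together held 642 to 972 CPM in the former and 400 to 484 CPM in the latter.

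In 14 of the 38 members the 4 libraries of low share lay above all the other 8 (10.5% of genes did), and in none below (6.07% of genes). They were the 3 constitutive catalytic subunits, Psmb8, the 4 structural beta subunits, Psma2, Psma6, Psma7, Psmc5, Psmd4 and Psmd3. The highest library of 29 of the 37 members was high replicate 1, which had the lowest share. Without these 4 libraries 1 gene and no member was called by edgeR, while the median slope of the members was then -0.31, against -0.01 for all genes. Without high replicate 2 the genes called fell from 4753 to 1827 and the members called from 19 to 14.

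**Figure D3:**
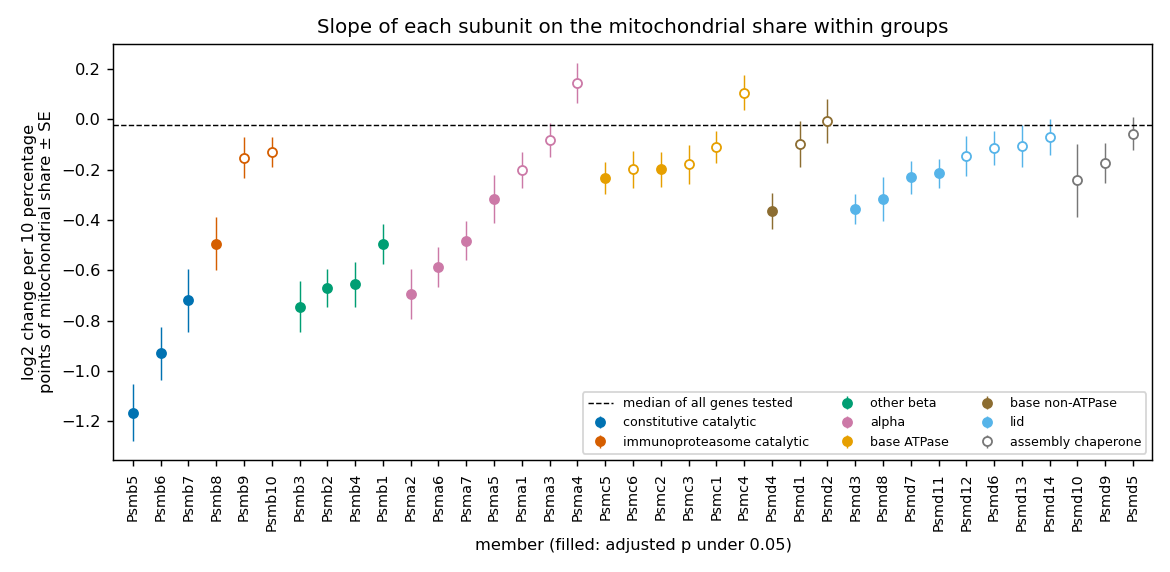
Slope of 37 members on the mitochondrial share (log2 change per 10 percentage points, ± SE, vertical axis) by role; filled points passed an adjusted p under 0.05 and the dashed line is the median of all genes, -0.02. The constitutive catalytic subunits lie lowest, from -1.17 to -0.72, and Psma4 and Psmc4 lie above 0.

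Transcript length ran in part along with the slopes, and its part in them was not tested. Members with a principal transcript under 1500 bases had a median slope of -0.32 (n = 17) and longer ones -0.19 (n = 20). Over all genes these medians were -0.18 and -0.002. Slopes were negative in 15 of the 17 shorter members and in all 20 longer ones, against 63.3% and 50.25% of all genes. Hepatocyte markers moved in part in the same libraries. The sum of 10 of them was 27340 to 47650 CPM in the 4 libraries of low share and 5996 to 12730 CPM in the other 8. None of the 10 was at 0. Alb held most of that sum in the 4 libraries, at 33930 of 47650 CPM in high replicate 1. In 5 of the 10 markers those 4 libraries lay above all the other 8 (10.5% of genes). Tat, Cps1 and Hnf4a were not called on the share, at slopes of 0.14 ± 0.11, -0.08 ± 0.11 and 0.07 ± 0.08. Of 10 stellate and endothelial cell markers, 3 fell with the share (Col1a1, Col3a1 and Des), where 15.7% of all genes did. The sum of the 10 was 60.8 to 154 CPM in the 4 libraries and 33.1 to 68.2 CPM in the other 8. Acta2 was at 0 in a library. In bulk tissue, fewer cells of a type and less RNA per cell cannot be told apart.

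**Figure D4:**
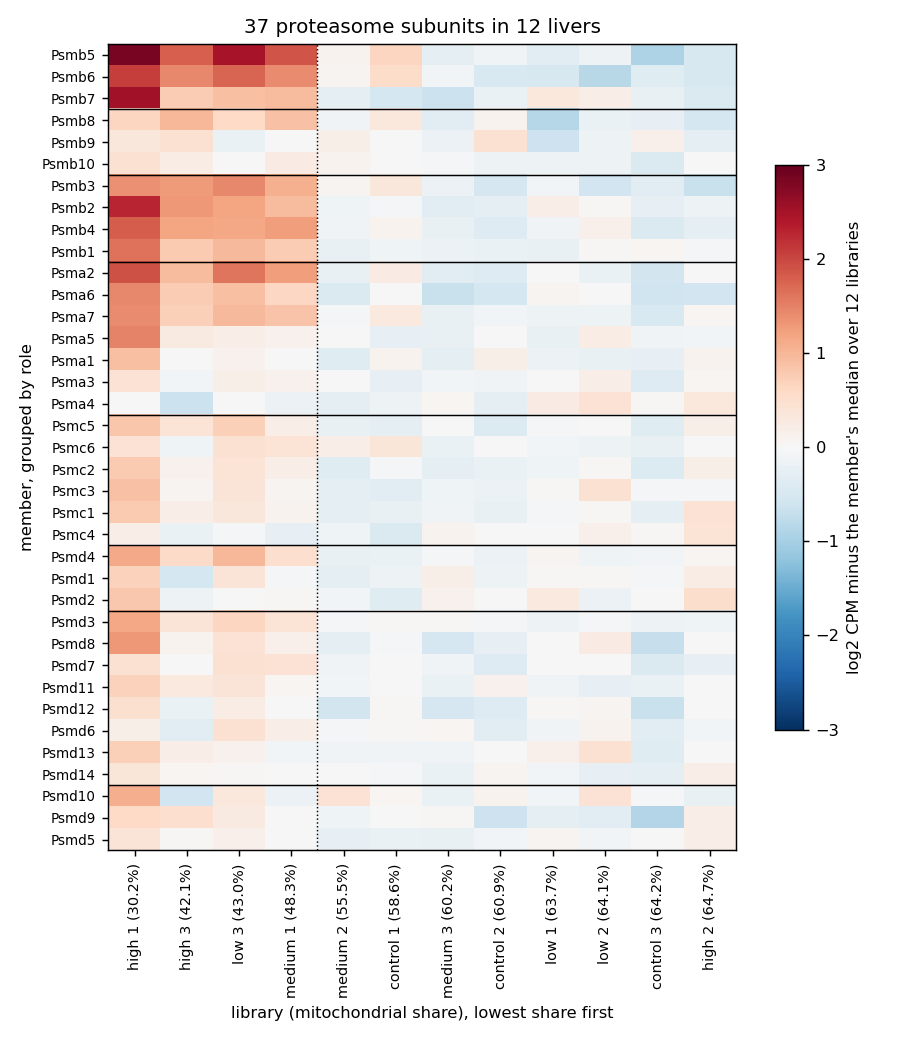
Log2 CPM of 37 members (rows, by role) minus each member's median, in 12 libraries ordered by mitochondrial share from 30.2% to 64.7%; the dotted line stands at 50%. The 4 libraries left of the line are the 4 highest for the constitutive catalytic and structural beta subunits and for Psma2, Psma6 and Psma7. Some of these cells are pale, as for Psma6 in medium replicate 1 (15.1 CPM, median 9.72). Cells of Psmb9, Psmb10 and most regulatory subunits are mostly paler, with exceptions such as Psmd8 in high replicate 1 (23.5 CPM, median 9.51).

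The balance between immunoproteasome and constitutive subunits was set out as a count ratio of each exchangeable pair within a library, which no scaling can alter. Psmb8 to Psmb5 was 1.57, 2.29 and 3.15 in the control livers, 1.37, 1.91 and 0.54 at the low dose, 0.977, 1.69 and 1.90 at the medium dose and 0.427, 1.91 and 1.14 at the high dose. Psmb9 to Psmb6 was 0.278, 0.771 and 0.591 in the control livers, 0.370, 0.661 and 0.107 at the low dose, 0.156, 0.444 and 0.382 at the medium dose and 0.124, 0.467 and 0.206 at the high dose. Psmb10 to Psmb7 was 8.45, 6.03 and 5.08 in the control livers, 4.26, 4.68 and 3.16 at the low dose, 3.66, 7.68 and 9.06 at the medium dose and 1.42, 8.04 and 4.07 at the high dose. In each pair the 4 libraries of low share had the 4 lowest ratios: 0.427 to 1.14 against 1.37 to 3.15, 0.107 to 0.206 against 0.278 to 0.771, and 1.42 to 4.07 against 4.26 to 9.06.

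Against control, none of 12 comparisons of these ratios passed. The mean log2 ratio of Psmb8 to Psmb5 was 1.17 ± 0.50 (SD, n = 3) in control and 0.23 ± 0.81 (n = 9) with curcumin, a difference of -0.94 (two-sided exact permutation p = 0.0909, adjusted 0.40). Without the 4 libraries it was -0.37, and the same contrast of Psmb9 to Psmb6 went from -0.88 to -0.14. Single doses against control cannot reach an exact p below 0.1. Psmb10 to Psmb7 reached it at the low dose, where the difference was -0.68 (exact permutation p = 0.1, adjusted 0.40) and the 3 ratios lay below all controls. At the medium dose that pair differed by -0.01. As a share of the summed level per kilobase, the immunoproteasome subunits made up 47.7% ± 7.33 (SD, n = 3 in each group) of the 6 catalytic subunits in control. With curcumin they made up 40.3% ± 17.1 at the low dose, 41.2% ± 10.5 at the medium dose and 34.3% ± 16.4 at the high dose, differences smaller than the spread within the curcumin groups.

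Pooled over the groups, the within-group slope of each ratio on the mitochondrial share was positive. Psmb10 to Psmb7 rose with the share in each curcumin group but fell among the controls, at 8.45, 6.03 and 5.08 with shares of 58.6%, 60.9% and 64.2%. Per 10 points the log2 ratio rose by 0.68 for Psmb8 to Psmb5 (exact permutation p = 0.0007716, the smallest the 1296 within-group orders can give, adjusted 0.00232), by 0.77 for Psmb9 to Psmb6 (p = 0.0054, adjusted 0.0081) and by 0.56 for Psmb10 to Psmb7 (p = 0.0255). This test was chosen after the values were seen. Leaving out any library kept the slopes at 0.62 to 0.88, 0.64 to 1.03 and 0.38 to 0.69. Without the 4 libraries of low share they were 1.21, 0.87 and -0.52, so the third pair rested on those libraries.

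**Figure D5:**
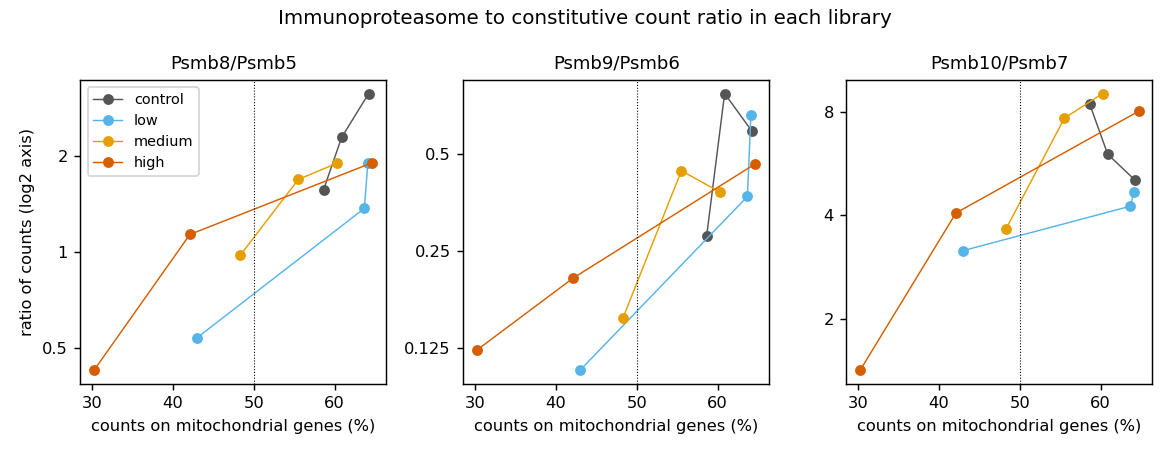
Count ratio of each immunoproteasome subunit to the constitutive subunit it replaces (log2 axis) against the percentage of counts on mitochondrial genes, with the 3 livers of a group joined by a line. All 4 points left of 50% lie below all 8 points to the right, at 0.427 to 1.14 against 1.37 to 3.15 for Psmb8 to Psmb5.

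Proteasome activators and builders outside the member list moved in part with the core. Directions in the lists of related genes that follow are on the TMM scale, since with library totals the slope of each of their tested genes was negative. Of the 5 activator and inhibitor genes, 4 fell with the share by edgeR (Psme1, Psme2, Psme3 and Psmf1), where 15.7% of all genes did. Psme3, the nuclear activator, stood at -0.42 ± 0.07 (edgeR adjusted p = 0.00087) and Psme4 at 0.18 ± 0.08. Psme1 and Psme2, the interferon-inducible 11S activator, had slopes of -0.27 ± 0.08 and -0.40 ± 0.06. Of the 5 core chaperones, 2 were called falling and 1 rising (15.7% and 12.5% of all genes). Pomp, the maturation factor of the core, fell by 0.65 ± 0.08 and Psmg4 by 0.77 ± 0.12 per 10 points. Psmg2 rose by 0.29 ± 0.09 (edgeR adjusted p = 0.0243). At the high dose Pomp differed from control by 1.34 ± 0.52, which did not pass (edgeR adjusted p = 0.377), and by -0.32 without the 4 libraries.

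Of 13 genes on the ubiquitin side, 5 fell with the share and none rose (15.7% and 12.5% of all genes), with Ubb, which encodes ubiquitin, at -0.65 ± 0.09 and Sem1, a small lid subunit outside the naming rule, at -0.57 ± 0.10. At the high dose 5 of the 13 were higher at an unadjusted p under 0.05 (7.87% of genes), with Uba1, the main ubiquitin-activating enzyme, at 0.78 ± 0.22 (edgeR adjusted p = 0.365; DESeq2 called it, at an adjusted p of 0.0396). Uba1 stood at 0.63 without the 4 libraries. Of 7 genes around Nrf1 (Nfe2l1, its relative Nfe2l2 and genes whose products process Nrf1), 2 rose with the share and none fell: Nfe2l2, which encodes the related factor Nrf2, by 0.48 ± 0.08, and Ddi2, the protease that activates Nrf1, by 0.38 ± 0.07. Nfe2l1 itself stayed between 22.3 and 30.3 CPM in all libraries, with a slope of -0.09 ± 0.06 that was not called.

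Of the 17 tested genes of interferon gamma signalling and response, edgeR and DESeq2 called none at any dose. The limma voom test called Irf1 at the high dose (adjusted p = 0.0479). All 17 had negative values at the low dose under each of the 3 scales. At the high dose 12 of 17 did on the TMM scale and 2 of 17 with library totals. At the low dose 7 of them were lower at an unadjusted p under 0.05 (3.5% of genes), and at the high dose 3 (4.91% of genes). Irf1, the interferon-induced factor that drives Psmb9 and Tap1, differed by -0.91 at the low dose and by -1.04 ± 0.30 at the high dose (edgeR adjusted p = 0.365), and Gbp3, an interferon-induced GTPase, by -0.87 and -0.78. Irf1 differed by -0.92 and -0.58 and Gbp3 by -0.92 and -1.11 without the 4 libraries. Ifng was not tested, with at most 0.287 CPM. Irf9, of the type I interferon pathway, rose with the mitochondrial share and Cxcl9, a chemokine, fell (12.5% and 15.7% of all genes). These were the 2 of 17 called, against 28.2% of all genes.

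Leukocytes, which carry the immunoproteasome without induction, were read from 20 markers. Their summed level on the TMM scale was 78.1 to 190 CPM in control, 61.3 to 79.96 CPM in low, 68.2 to 78.7 CPM in medium and 71.0 to 89.3 CPM in high, with the top value in control replicate 2, and Cd3e, Cd3d and Ly6g were at 0 in a library. At the high dose 8 of 19 tested markers were lower at an unadjusted p under 0.05 (4.91% of genes) and none was called by edgeR, while DESeq2 called 3 and limma voom 1, all lower. The median of the markers at that dose was -0.87 on the TMM scale with 16 of 19 negative, -0.25 with library totals with 10 of 19 negative, and -1.27 without the 4 libraries. On the mitochondrial share edgeR called none of the leukocyte markers on the TMM scale (28.2% of all genes). It called 12 falling with library totals (10411 of 16839 genes) and 2 rising with totals free of mitochondrial genes (4787 of 16839 genes). Psmb9 was highest in control replicate 2 too, at 10.62 CPM, level with high replicate 3, and the part of these cells in its values was not tested. Of 12 genes of MHC class I loading, 5 fell with the share (15.7% of all genes), among them Calr and B2m, by 0.83 ± 0.11 and 0.68 ± 0.10. Nlrc5, the class I transactivator, rose by 0.41 ± 0.08 and was the 1 of 12 called as rising (12.5% of all genes). Tap1, the peptide transporter encoded beside Psmb9, differed from control by -0.72 at the low dose and by -0.87 ± 0.29 at the high dose (edgeR adjusted p = 0.371), and by -0.59 and -0.66 without the 4 libraries. The list did not move as 1: at the high dose 8 of the 12 genes were positive. There 2 were higher at an unadjusted p under 0.05 in edgeR, Pdia3 (1.54 ± 0.57) and Erap1 (0.61 ± 0.25), and 1 lower, Tap1 (7.87% and 4.91% of genes). At the low dose 5 of 12 were positive, and 2, Tap1 and Tap2, were lower at that limit (3.5% of genes).

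Near-identical copies could take reads from 1 member to a degree that matters. Gm3375, a processed pseudogene 98.9% identical to Psmb5, held 14.3% as many counts as Psmb5, at 0.35 to 4.95 CPM. The next of the 14 copies found were far smaller, and adding all copies to their subunits turned no ratio's direction.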

How the data were processed

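Whole-liver RNA of 12 mice was sequenced. The authors deposited 1 table of whole-number counts per gene, not normalized. The submitters' processing notes name fastp 0.23.4, STAR 2.7.10b, StringTie 2.2.1 and genome build mm39 without their roles, and strand and annotation are not given in the sources used here, so reads shared with antisense or near-identical genes cannot be told apart. Symbols from GENCODE M21 matched 52073 of 56923 gene IDs (91.5%). Groups came from the labels; no 2 libraries of a group agreed within sampling noise (chi-square per degree of freedom at least 38.5).

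Counts were tested with edgeR 4.0.16 (R 4.3.3; TMM, filterByExpr, robust quasi-likelihood fit, all 12 libraries in 1 fit, Benjamini-Hochberg over 16839 genes, threshold 0.05); SE is the log2 fold change over the root of F. The mitochondrial slope added the share to the groups. Ratios were compared by exact two-sided permutation. Alternatives used DESeq2 1.42.0, limma 3.58.1 (voom), other scales, filters and covariates, and left out libraries; the fits were tested on simulated data. Copies of members were found with BLAST+ 2.17.0 (at least 95% identity over 80% of the copy's own length). For copies of mitochondrial genes the 80% was of the shorter transcript. Named genes were Psmb5 to Psmb10, the 4 members per direction with the smallest unadjusted p in each comparison, and up to 4 genes of each related list, with others chosen after their values were seen. Members, lists, the limit of 50% and the length limit were chosen with earlier results of these data known. Coordinates of mm39 were not used here.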

Additional observations from a re-analysis of the deposited data

How the results depend on the processing

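Replicate numbers were not taken as pairs in the main fit. Deviations of same-numbered libraries correlated at -0.257 to 0.445 over 18 pairs, 5 of them over 0.1. Values for differently numbered libraries are not given here, so these cannot show whether the numbers pair the samples. With a replicate block 3017 genes and 15 members were called on the mitochondrial share, and at the high dose Psmb9 stood at 0.0016. Genes called at the low, medium and high dose and for their mean were 42, 89, 172 and 165 with DESeq2 and 0, 35, 256 and 97 with limma voom, which called 1 member at the high dose and put Psmb6 at -0.27 (low), Psmb8 at -0.12 (medium) and Psmb9 at 0.14 (high). With no filter on low counts 3 genes were called for the mean and Psmb9 at the high dose was 0.020. With only the 2 groups compared 1 gene (low) and 8 genes (medium) were called and Psmb9 at the high dose was 0.0031.

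With library totals as the scale 10470 genes and 37 members were called on the share. The members' medians were then 0.63 (medium), 1.33 (high), 0.81 (mean) and -0.72 (share). Signs turned for Psma1 (0.043 low, 0.20 medium), Psmb8 (0.19 low), Psmd14 (0.091 low), Psmb9 (0.25 medium, 0.78 high, 0.21 mean), Psmd11 (0.40 medium), Psmd5 (0.41 medium), and on the share Psma4 (-0.36) and Psmc4 (-0.40). With totals free of mitochondrial genes and copies the high-dose median was 0.22, and signs turned for Psmb10 (-0.054 low, 0.069 on the share), Psmb8 (-0.071 mean) and Psmb9 (0.044 on the share).

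With the mitochondrial share as a covariate the high-dose median was 0.16 and the medium-dose median -0.045, with 13 of 38 members positive. Signs turned for Psmb5 (-0.046 medium, -0.34 high, -0.044 mean), Psmb6 (-0.18 low, -0.057 medium, -0.36 high, -0.20 mean), Psmb7 (-0.13 medium) and Psmb8 (-0.21 medium, -0.41 high, -0.34 mean).

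Without the 4 libraries under 50%, an alternative chosen after seeing the data that leaves 3 control, 2 low, 2 medium and 1 high library, the lone one assumed to vary like the other groups, 3, 7, 6 and 3 genes were called at the low, medium and high dose and for the mean, 1 gene and 0 members on the share, and the high-dose median was 0.11. Signs turned for Psmb5 (-0.27 low, -0.055 medium, -0.49 high, -0.27 mean), Psmb6 (-0.65 low, -0.47 high, -0.36 mean), Psmb7 (-0.13 medium, -0.14 high), Psmb8 (-0.27 medium, -0.60 high, -0.49 mean) and the ratio Psmb10 to Psmb7 (0.39 medium, 0.34 high, 0.017 mean).

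Without medium replicate 1 the medium-dose median was -0.013, with 19 of 38 positive. Leaving out 1 replicate at a time gave 0 to 2 genes called at the low dose, 0 to 1 for the mean and 1827 to 4737 on the share. Over the same refits the low-dose values ranged from -0.25 to 1.72 for Psmb5, -0.64 to 1.04 for Psmb6, -0.57 to 0.17 for Psmb8, -0.019 to 0.20 for Psmb10 and -0.13 to 0.048 for Psmd14. Medium-dose values ranged from -0.066 to 1.35 for Psmb5, -0.14 to 0.76 for Psmb7, -0.28 to 0.38 for Psmb8, -0.12 to 0.034 for Psmd11 and -0.27 to 0.39 for the ratio Psmb10 to Psmb7, and high-dose values from -0.15 to 0.18 for Psmb9. Apart from the slope on the share, the genes named passed no adjusted test under edgeR, so these signs are of values within the spread. Beyond scaling and sample number, the cause of these shifts was not tested. With 3 livers a group, single doses could not reach p under 0.1 in the exact test.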
